A study of Mus musculus with 15 samples.

Results

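The 31 genes described here encode the mitochondrial enzymes and carriers that burn fatty acids and handle ketone bodies in the liver. They were taken by gene name, in a list chosen with earlier results of these data known. All 31 stand among the 26264 genes of the deposited count table. RNA was sequenced from mouse liver in 15 libraries, 3 in each of 5 groups. HFD-337 livers are read here as those given Gc337, the reagent that the design text ties to knockdown of Stk25 in a high-fat diet model of fatty liver disease (MASLD). For HFD-338 livers the labels give a title and no agent. HFD-Res livers are read here as those given resmetirom, which the design text names and which activates thyroid hormone receptor beta. HFD-NS livers share the HFD prefix of those 3 groups, and SD-NS livers form the remaining group. SD and NS are not expanded in the labels, which also give no strain, age, sex, dose or treatment time. Nothing states whether libraries came from separate animals, so the tests measure the spread between these libraries.

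Fatty acids enter mitochondria as carnitine esters and are then shortened by repeated rounds of dehydrogenation, hydration, a second oxidation and thiolytic cleavage. Electrons from the first step pass through the electron transfer flavoprotein to ubiquinone, and the acetyl-CoA released is burnt or turned into ketone bodies. In liver this pathway rises in fasting under the nuclear receptor PPAR alpha, and malonyl-CoA, the first product of fat synthesis, holds it back at the carnitine step.

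Total counts per library ran from 3873903 to 9797743, of which the 31 members took 0.690% to 1.38%. Stk25 itself, the kinase targeted in the design text, stood at 19.1, 18.8 and 14.6 CPM in HFD-337 livers, 22, 21.9 and 20.6 in HFD-338 livers, 46.9, 37.7 and 41.3 in HFD-Res livers, 48.6, 43.7 and 47.3 in HFD-NS livers and 50.6, 53.3 and 47.8 in SD-NS livers. These are counts scaled to library size with TMM (CPM), the scale used for levels unless TPM is named. Stk25 fell both in HFD-337 livers (log2 fold change -1.40 ± 0.11 (SE), edgeR adjusted p = 3.80e-08) and in HFD-338 livers (-1.11 ± 0.11, adjusted p = 6.41e-07), each against HFD-NS livers. Markers listed for hepatocytes summed to 104276 to 151535 CPM in HFD-337, 116495 to 122557 in HFD-338, 90111 to 101052 in HFD-Res, 122005 to 136404 in HFD-NS and 134099 to 159705 in SD-NS livers. Markers of muscle, another tissue that burns much fat, summed to at most 1.77 CPM in any library, with 2 of the 8 at 0 in every library.

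Messages of the mitochondrial pathway were lower in both HFD-337 and HFD-338 livers than in HFD-NS livers. In HFD-337 livers 22 of the 31 members fell and 2 rose, where 47.2% of all 13189 genes tested were called, 24.4% higher and 22.8% lower. HFD-338 livers had 25 members lower and 0 higher than HFD-NS livers in edgeR's test (1 higher, Ucp2, at an unadjusted p below 0.05, and 1 by DESeq2), where 36.8% of all genes were called, 18.9% higher and 17.9% lower. A gene was called at an edgeR quasi-likelihood p below 0.05 after Benjamini-Hochberg adjustment over all genes tested, and fold changes in brackets are log2 values ± SE of that fit. The median log2 fold change of the members was -0.41 in HFD-337 and -0.55 in HFD-338 livers, beside 0.03 and 0.00 over all genes tested. These comparisons share the HFD-NS libraries, as does the one of HFD-Res livers, so their values are set side by side only. TPM is a scale per transcript length and was used here without TMM scaling. On it, the members split into 25 lower and 1 higher in HFD-337 and 20 lower and 1 higher in HFD-338 livers. All genes then split into 2244 higher and 3613 lower (counts 3214 and 3006) in HFD-337 livers, and into 2792 higher and 1377 lower (counts 2490 and 2357) in HFD-338 livers. From counts to TPM the median of all genes shifted by -0.11 in HFD-337 and 0.11 in HFD-338 livers.

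Fewer members were called in HFD-Res against HFD-NS livers. There 5 members fell (Acsl1, Acadm, Acad10, Hadh and Pdk2) and 2 rose (Etfb and Mlycd), with 13% of all genes called, 6.22% higher and 6.74% lower, and a median of -0.07 over the members against 0.01 over all genes. Without replicate 13 of the HFD-NS libraries 4 members were called, all lower. HFD-NS livers had 16 members lower and 7 higher than SD-NS livers, where 28.1% of all genes were called, 12% higher and 16.1% lower. Without SD-NS replicate 7 the 7 higher became 4, as Acads, Bdh1 and Acot13 lost their calls. The median of the members was -0.32, against -0.02 over all genes. On TPM 12 members were lower and 8 higher, and all genes split into 1988 higher and 1112 lower (counts 1589 and 2122).

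**Figure D1:**
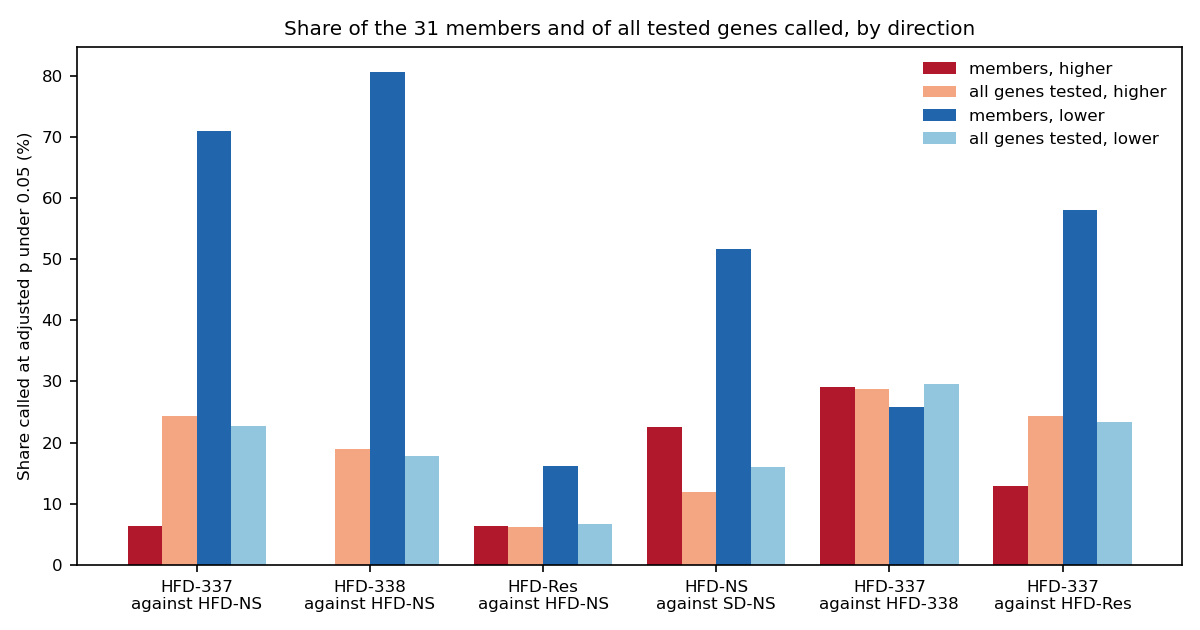
Share of the 31 members (dark bars) and of all 13189 tested genes (pale bars) called higher (red) or lower (blue) at an adjusted p below 0.05, in percent, for 6 comparisons; the first-named group of each pair is the one that is higher or lower. The dark blue bars stand far above the pale blue ones for HFD-337 and HFD-338 livers against HFD-NS livers, and all 4 bars are of like height between HFD-337 and HFD-338 livers.

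Summed over the 31 genes, the level was 6809, 7090 and 8070 CPM in HFD-337 livers, 7054, 7403 and 7830 in HFD-338 livers, 9235, 9379 and 10357 in HFD-Res, 10884, 11131 and 12004 in HFD-NS and 14935, 15568 and 15616 in SD-NS livers (lowest, middle and highest library). HFD-337 and HFD-338 livers overlapped each other and lay below the other groups, HFD-Res livers lay below HFD-NS livers, and HFD-NS livers lay below SD-NS livers. Their means were 64.6%, 65.5% and 85.2% of the HFD-NS mean in HFD-337 livers, HFD-338 livers and HFD-Res livers, and 136% in SD-NS livers. Acsl1 alone made up 24.1% to 26.8% of the sum in SD-NS livers. Left out, it leaves sums of 6226 to 7316 CPM in HFD-337, 6317 to 6849 in HFD-338, 8373 to 9416 in HFD-Res, 9165 to 9414 in HFD-NS and 11331 to 11549 in SD-NS livers, and HFD-Res then overlaps HFD-NS. By group means of CPM, 19 of the 31 genes were highest in SD-NS livers, and 28 were lowest in HFD-337 (12) or HFD-338 livers (16). The split between those 2 groups hung on the scale. By mean TPM only Cpt2, Eci1, Etfb and Mlycd were lowest in HFD-338 livers. Acadvl, lowest there by CPM, averaged 235.7 TPM in HFD-337 and 255.8 TPM in HFD-338 livers. In a bulk sample, fewer cells of a type and less RNA per cell cannot be told apart.

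**Figure D2:**
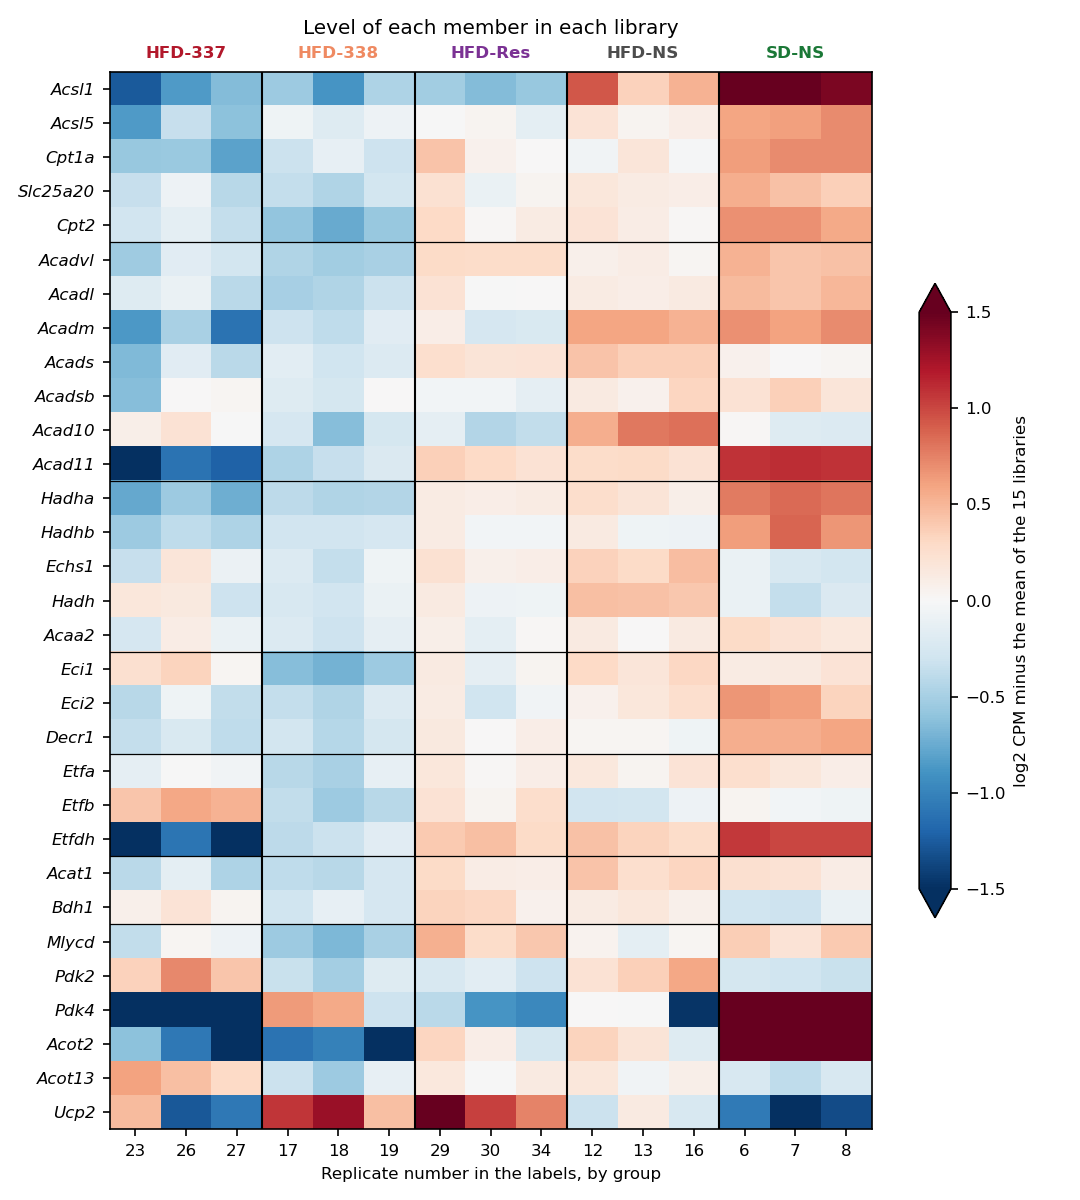
Level of each member (rows, in blocks by role) in each library (columns, by group with the replicate number of the labels) as log2 CPM minus the mean over the 15 libraries, with colours capped at 1.5 in either direction. Acsl1, Acad11, Etfdh, Pdk4 and Acot2 are red in the 3 SD-NS libraries, while Etfb is reddest in the 3 HFD-337 libraries.

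Activation and import came down in each of the 4 HFD groups against SD-NS livers, with all 5 genes called lower. Acsl1, which joins long-chain fatty acids to coenzyme A (chromosome 8, 46924074 to 46989088 on build mm39), stood at 564, 754 and 864 CPM in HFD-337 livers, 930, 737 and 981 in HFD-338 livers, 941, 861 and 912 in HFD-Res livers, 2590, 1719 and 1942 in HFD-NS livers and 4067, 4176 and 3604 in SD-NS livers. All 9 libraries of HFD-Res, HFD-337 and HFD-338 livers lay below the lowest HFD-NS library, and all HFD-NS libraries below the lowest SD-NS library. Its log2 fold change against HFD-NS livers was -1.52 ± 0.16 (adjusted p = 7.72e-07) in HFD-337, -1.24 ± 0.16 (adjusted p = 1.36e-05) in HFD-338 livers and -1.20 ± 0.16 (adjusted p = 4.09e-05) in HFD-Res livers. HFD-NS livers themselves had less Acsl1 than SD-NS livers (-0.92 ± 0.16, adjusted p = 3.53e-04). Per length, Acsl1 ranked first of the 31 in SD-NS livers at a mean of 1737 TPM and sixth in HFD-337 livers at 310.4 TPM.

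Cpt1a, the carnitine palmitoyltransferase of the outer membrane and the step that malonyl-CoA inhibits, stood at 381, 385 and 323 CPM in HFD-337 livers, 452, 518 and 456 in HFD-338 livers, 761, 589 and 568 in HFD-Res livers, 544, 638 and 559 in HFD-NS livers and 875, 924 and 924 in SD-NS livers. The HFD-337 libraries lay below all others, and Cpt1a fell there against HFD-NS livers (-0.68 ± 0.12, adjusted p = 1.25e-04), whereas HFD-338 livers missed the threshold (-0.29 ± 0.12, adjusted p = 0.0623) and HFD-Res livers were not called (0.14 ± 0.12, adjusted p = 0.502). In HFD-338 livers Cpt1a passed it in 3 alternatives, with the lowest adjusted p at 0.0342. Acsl5, another synthetase, had 179 to 254 CPM in HFD-337, 282 to 308 in HFD-338 and 331 to 373 in HFD-NS livers, and it fell in HFD-337 livers (-0.71 ± 0.11, adjusted p = 4.31e-05) and was not called in HFD-338 livers (-0.23 ± 0.11, adjusted p = 0.112). The difference between HFD-337 and HFD-338 livers was itself called for both Cpt1a (-0.39 ± 0.12, adjusted p = 0.00866) and Acsl5 (-0.48 ± 0.11, adjusted p = 0.00126).

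Slc25a20 carries acylcarnitines across the inner membrane, and Cpt2 rebuilds acyl-CoA inside. Cpt2 stood at 136, 151 and 130.3 CPM in HFD-337 livers, 110.1, 98.8 and 112 in HFD-338 livers, 204, 169 and 182 in HFD-Res livers, 192, 179 and 168 in HFD-NS livers and 268, 268 and 247 in SD-NS livers. It was lowest in HFD-338 livers, where it fell by 0.75 on the log2 scale against HFD-NS livers, compared with a fall by 0.37 in HFD-337 livers, and the difference between HFD-337 and HFD-338 was called (0.38 ± 0.10, adjusted p = 0.00252), though not on TPM (adjusted p = 0.346). Slc25a20 fell in both, with log2 fold changes of -0.40 and -0.49. All 5 genes of activation and import fell in HFD-NS against SD-NS livers, by 0.32 (Slc25a20) to 0.92 (Acsl1). The call of Slc25a20 there was lost in 7 of its alternatives, with adjusted p up to 0.127.

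The acyl-CoA dehydrogenases carry out the first oxidation, each on its own range of chain lengths. All 7 members of this group fell in HFD-337 livers against HFD-NS livers, and 6 of them, all but Acadsb, in HFD-338 livers. Acadm, which acts on medium chains (chromosome 3, 153627990 to 153650280), stood at 286, 369.5 and 241 CPM in HFD-337 livers, 416, 397 and 461 in HFD-338 livers, 554, 436 and 442 in HFD-Res livers, 778, 781 and 745 in HFD-NS livers and 836, 785 and 845 in SD-NS livers. HFD-NS livers were not called against SD-NS livers (-0.10 ± 0.13, adjusted p = 0.618), and all 9 libraries of the other groups lay below both. The falls against HFD-NS livers were -1.36 ± 0.13 (adjusted p = 2.53e-07) in HFD-337, -0.85 ± 0.13 (adjusted p = 6.52e-05) in HFD-338 livers and -0.69 ± 0.13 (adjusted p = 0.00129) in HFD-Res livers.

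Acad11, a family member of less known chain range (chromosome 9, 103940923 to 104004855), stood at 133, 184 and 170.1 CPM in HFD-337 livers, 287, 311 and 339 in HFD-338 livers, 508, 488 and 461 in HFD-Res livers, 477, 485 and 459 in HFD-NS livers and 837, 853 and 836 in SD-NS livers. Those values form 4 steps, with HFD-337 lowest, HFD-338 next, HFD-Res and HFD-NS overlapping, and SD-NS highest. Acad11 fell by 1.54 on the log2 scale in HFD-337 livers (SE 0.11, adjusted p = 8.84e-09) and by 0.60 in HFD-338 livers. Its exons share 1.86% of their bases with Ackr4, and reads there count for both genes.

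Acad10, another member of the family of less known substrate, stood at 17.5, 19.3 and 16.4 CPM in HFD-337 livers, 13.9, 10.6 and 13.7 in HFD-338 livers, 14.99, 12.2 and 12.8 in HFD-Res livers, 24.2, 28.7 and 29.2 in HFD-NS livers and 16.8, 14.4 and 14.3 in SD-NS livers. HFD-NS livers alone were high, above every library of the other groups. Acad10 rose in HFD-NS against SD-NS livers (0.84 ± 0.14, adjusted p = 1.86e-04) and was lower than in HFD-NS livers in all 3 other HFD groups, with log2 fold changes of -0.62 in HFD-337, -1.10 in HFD-338 livers and -1.04 in HFD-Res livers. None of those 3 groups was called against SD-NS livers, where the log2 fold changes were 0.22, -0.26 and -0.20.

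Acads, the short-chain enzyme, was also higher in HFD-NS than in SD-NS livers (0.35 ± 0.10, adjusted p = 0.0127), a call lost without SD-NS replicate 7 (adjusted p = 0.0508). It stood at 49.6, 69.9 and 59.5 CPM in HFD-337, 70.5, 64.0 and 68.1 in HFD-338 livers, 93.6, 89.5 and 90.4 in HFD-Res, 106, 100.4 and 100.4 in HFD-NS and 82.0, 78.9 and 79.9 in SD-NS livers. On CPM, HFD-337 and HFD-338 livers lay below the other 3 groups. On TPM, HFD-338 livers averaged 77.1 and overlapped SD-NS livers, which averaged 77.4. The call of Acads as lower in HFD-338 than in SD-NS livers (edgeR adjusted p = 0.043) was lost in 14 of 15 alternatives. The enzymes of very long and long chains, Acadvl and Acadl, fell in HFD-337 livers (log2 fold changes -0.39 and -0.34), in HFD-338 livers (-0.56 and -0.54) and in HFD-NS against SD-NS livers (-0.39 and -0.35). Acadl lost the last call without the low-count filter and with TPM, with adjusted p up to 0.105. Acadsb, which works on a branched chain from isoleucine, had a fall in HFD-337 livers (-0.35 ± 0.13, adjusted p = 0.0406) that was lost in 5 of 13 alternatives, the adjusted p ranging from 0.00274 to 0.216. In HFD-338 livers Acadsb missed the threshold (-0.33 ± 0.13, adjusted p = 0.063) and passed it in 3 of 13 alternatives. HFD-337 and HFD-338 livers did not differ in Acadsb by a call (-0.02 ± 0.14, adjusted p = 0.903). Per length, the ratio of Acadvl to Acadm was 0.833 to 1.18 in HFD-337, 0.534 to 0.607 in HFD-338, 0.763 to 0.958 in HFD-Res, 0.468 to 0.479 in HFD-NS and 0.554 to 0.593 in SD-NS livers. HFD-337 and HFD-Res livers lay above the other 3 groups.

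The later steps of each round are run by the trifunctional protein on long chains and by separate enzymes on short ones. Hadha and Hadhb encode the alpha and beta subunits of the trifunctional protein and lie 272 bases apart on opposite strands of chromosome 5 (30324421 to 30359978 and 30360251 to 30389591). Their 300-base promoter windows share 228 bases. Only the window of Hadha is shown, read towards Hadha, in RefSeq sequence of build GRCm38.p6 (250 bases before and 50 after the start).
Hadha promoter, chr5:30154931-30155230, minus strand: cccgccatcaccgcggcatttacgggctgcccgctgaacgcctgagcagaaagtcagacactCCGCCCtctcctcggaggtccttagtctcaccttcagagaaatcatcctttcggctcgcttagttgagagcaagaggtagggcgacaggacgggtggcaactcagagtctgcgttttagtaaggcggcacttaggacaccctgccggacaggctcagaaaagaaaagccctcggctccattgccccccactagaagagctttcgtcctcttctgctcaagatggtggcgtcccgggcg
Capitals mark GGGCGG or CCAAT on either strand, here 1 GGGCGG box on the reverse strand. The window of Hadhb holds more GGGCGG boxes, at bases -90, -25, 11 and 25 from its start, and not all of them lie in the bases shown. Hadha stood at 253, 296 and 259 CPM in HFD-337 livers, 329, 314 and 318 in HFD-338 livers, 470.2, 461 and 471 in HFD-Res livers, 518, 492 and 459 in HFD-NS livers and 739, 776 and 751 in SD-NS livers. Hadhb stood at 133, 148 and 140.4 CPM in HFD-337 livers, 158, 158 and 162 in HFD-338 livers, 211, 188 and 188 in HFD-Res livers, 212, 185 and 183 in HFD-NS livers and 297, 355 and 305 in SD-NS livers. Both genes were lowest in HFD-337 livers and highest in SD-NS livers. They fell in HFD-337 livers (-0.86 ± 0.09, adjusted p = 5.29e-07 for Hadha and -0.46 ± 0.10, adjusted p = 6.34e-04 for Hadhb), in HFD-338 livers (-0.61 ± 0.09, adjusted p = 3.99e-05 and -0.28 ± 0.09, adjusted p = 0.0270) and in HFD-NS against SD-NS livers (-0.63 ± 0.09, adjusted p = 5.37e-05 and -0.72 ± 0.09, adjusted p = 2.30e-05). The call of Hadhb in HFD-338 livers was lost in 5 of 13 alternatives, with adjusted p up to 0.232. Per length, Hadha stood to Hadhb as 1.41 to 1.52 in HFD-337 and 1.498 to 1.60 in HFD-338 livers, against 1.70 to 1.91 in HFD-Res, 1.86 to 2.03 in HFD-NS and 1.67 to 1.90 in SD-NS livers. The first 2 groups lay below the other 3 without overlap.

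The short-chain enzymes Echs1, a hydratase, and Hadh, a dehydrogenase, were also higher in HFD-NS than in SD-NS livers. Hadh stood at 466, 455 and 333 CPM in HFD-337 livers, 349, 339 and 385 in HFD-338 livers, 452, 392 and 394 in HFD-Res livers, 566, 558 and 544 in HFD-NS livers and 385, 323 and 355 in SD-NS livers. HFD-NS livers were above every other library. Hadh rose in HFD-NS against SD-NS livers (0.65 ± 0.12, adjusted p = 4.93e-04) and fell against HFD-NS livers in HFD-337 (-0.41 ± 0.12, adjusted p = 0.00744), HFD-338 (-0.64 ± 0.12, adjusted p = 3.59e-04) and HFD-Res livers (-0.43 ± 0.12, adjusted p = 0.0191), the last call being lost in 6 of 13 alternatives with adjusted p up to 0.0847. Echs1 ranged over 154 to 223 CPM in HFD-337, 154 to 187 in HFD-338, 206 to 230.2 in HFD-Res, 239 to 269.9 in HFD-NS and 162 to 182 in SD-NS livers. It rose in HFD-NS against SD-NS livers (0.57) and fell against HFD-NS livers in HFD-337 (-0.43) and HFD-338 livers (-0.57). Acaa2, the thiolase that ends a round, had 649.8 to 835 CPM in HFD-337, 621 to 701 in HFD-338 and 778 to 851 in HFD-NS livers. Its one call against HFD-NS livers, in HFD-338 (-0.31 ± 0.11, adjusted p = 0.0269), was lost in 6 of 13 alternatives, with adjusted p up to 0.123. In HFD-337 livers it was not called (-0.17 ± 0.11, adjusted p = 0.209), although with TPM it was (adjusted p = 0.003).

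Double bonds of unsaturated fatty acids are moved or removed by auxiliary enzymes. Eci1, an isomerase (chromosome 17, 24645657 to 24658290), stood at 206, 219.5 and 177 CPM in HFD-337 livers, 112, 106 and 119 in HFD-338 livers, 192, 159 and 179 in HFD-Res livers, 214, 198 and 215 in HFD-NS livers and 189.8, 191 and 201 in SD-NS livers. The HFD-338 libraries were low, below every library of the other 4 groups. Eci1 fell in HFD-338 livers (-0.90 ± 0.10, adjusted p = 1.92e-06), was not called in HFD-337 livers (-0.05 ± 0.10, adjusted p = 0.672), and differed between HFD-337 and HFD-338 livers (0.84 ± 0.10, adjusted p = 1.18e-06). Eci2, an isomerase found in mitochondria and peroxisomes, and Decr1, a dienoyl-CoA reductase, fell in HFD-337 livers (log2 fold changes -0.43 and -0.32), HFD-338 livers (-0.50 and -0.32) and HFD-NS against SD-NS livers (-0.38 and -0.56). Decr1 lost its call in HFD-338 livers with TPM and without replicate 18 of that group, with adjusted p up to 0.0763. For Eci2 the call in HFD-NS livers was lost in 7 alternatives, with adjusted p up to 0.115.

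The electron transfer genes moved apart in HFD-337 livers. Etfa and Etfb encode the 2 subunits of the electron transfer flavoprotein, and Etfdh encodes the oxidoreductase that passes its electrons to ubiquinone. The promoters of Etfdh and Etfb are shown because these genes had the lowest and the highest fold change of all members in HFD-337 against HFD-NS livers.
Etfdh promoter, chr3:79628718-79629017, minus strand: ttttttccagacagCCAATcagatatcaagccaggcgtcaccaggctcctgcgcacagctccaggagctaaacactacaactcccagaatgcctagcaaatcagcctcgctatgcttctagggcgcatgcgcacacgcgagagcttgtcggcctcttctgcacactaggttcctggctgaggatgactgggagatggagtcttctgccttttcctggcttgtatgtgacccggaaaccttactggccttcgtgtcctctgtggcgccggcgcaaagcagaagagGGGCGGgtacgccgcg
Etfb promoter, chr7:43443822-43444121, plus strand: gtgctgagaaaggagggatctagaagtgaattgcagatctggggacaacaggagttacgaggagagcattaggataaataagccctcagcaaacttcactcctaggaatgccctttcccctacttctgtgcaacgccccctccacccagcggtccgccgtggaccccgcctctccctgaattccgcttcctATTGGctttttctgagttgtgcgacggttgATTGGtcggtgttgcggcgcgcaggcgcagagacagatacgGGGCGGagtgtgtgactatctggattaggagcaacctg
Both windows (RefSeq, GRCm38.p6) hold 1 GGGCGG box, in capitals, and Etfb has 2 CCAAT boxes, read as ATTGG on this strand, against 1 in Etfdh. Etfdh (chromosome 3, 79511095 to 79536074 on mm39) stood at 106, 165 and 122 CPM in HFD-337 livers, 269, 282 and 312 in HFD-338 livers, 464, 481 and 430.1 in HFD-Res livers, 477, 445 and 426 in HFD-NS livers and 735, 708 and 705 in SD-NS livers. Etfb (chromosome 7, 43093496 to 43107224) stood at 463, 519.7 and 499.7 CPM in HFD-337 livers, 269.6, 237 and 261 in HFD-338 livers, 403, 357 and 416 in HFD-Res livers, 285, 286 and 328 in HFD-NS livers and 357, 339 and 333 in SD-NS livers. In HFD-337 livers Etfdh was below, and Etfb above, every library of the other 4 groups.

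Etfdh fell in HFD-337 livers to 29.2% of the HFD-NS mean (log2 fold change -1.77 ± 0.13 (SE), edgeR adjusted p = 1.03e-08) and Etfb rose (0.72 ± 0.10, adjusted p = 7.55e-06). In HFD-338 livers Etfdh fell (-0.64 ± 0.12, adjusted p = 5.14e-04) and Etfb missed the threshold (-0.23 ± 0.10, adjusted p = 0.0701; limma-voom 0.0457). In HFD-Res livers Etfdh was not called (0.03 ± 0.12, adjusted p = 0.926) and Etfb rose (0.39 ± 0.10, adjusted p = 0.0101), a call lost in 3 of 13 alternatives with adjusted p up to 0.0592. Etfa was not called in HFD-337 livers (-0.20 ± 0.10, adjusted p = 0.105) and fell in HFD-338 livers (-0.47 ± 0.10, adjusted p = 0.00119). With TPM the fall of Etfa in HFD-337 livers was called (adjusted p = 0.00187). Per length, Etfb stood to Etfdh as 7.94 to 11.03 in HFD-337, 2.11 to 2.53 in HFD-338, 1.87 to 2.44 in HFD-Res, 1.51 to 1.95 in HFD-NS and 1.19 to 1.23 in SD-NS livers. The ratio of Etfa to its partner Etfb was 0.459 to 0.471 in HFD-337 livers against 0.845 to 0.939 in HFD-NS livers. Exons of Etfdh share 1.01% of their bases with Ppid, and those of Etfa and Etfb share none.

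**Figure D3:**
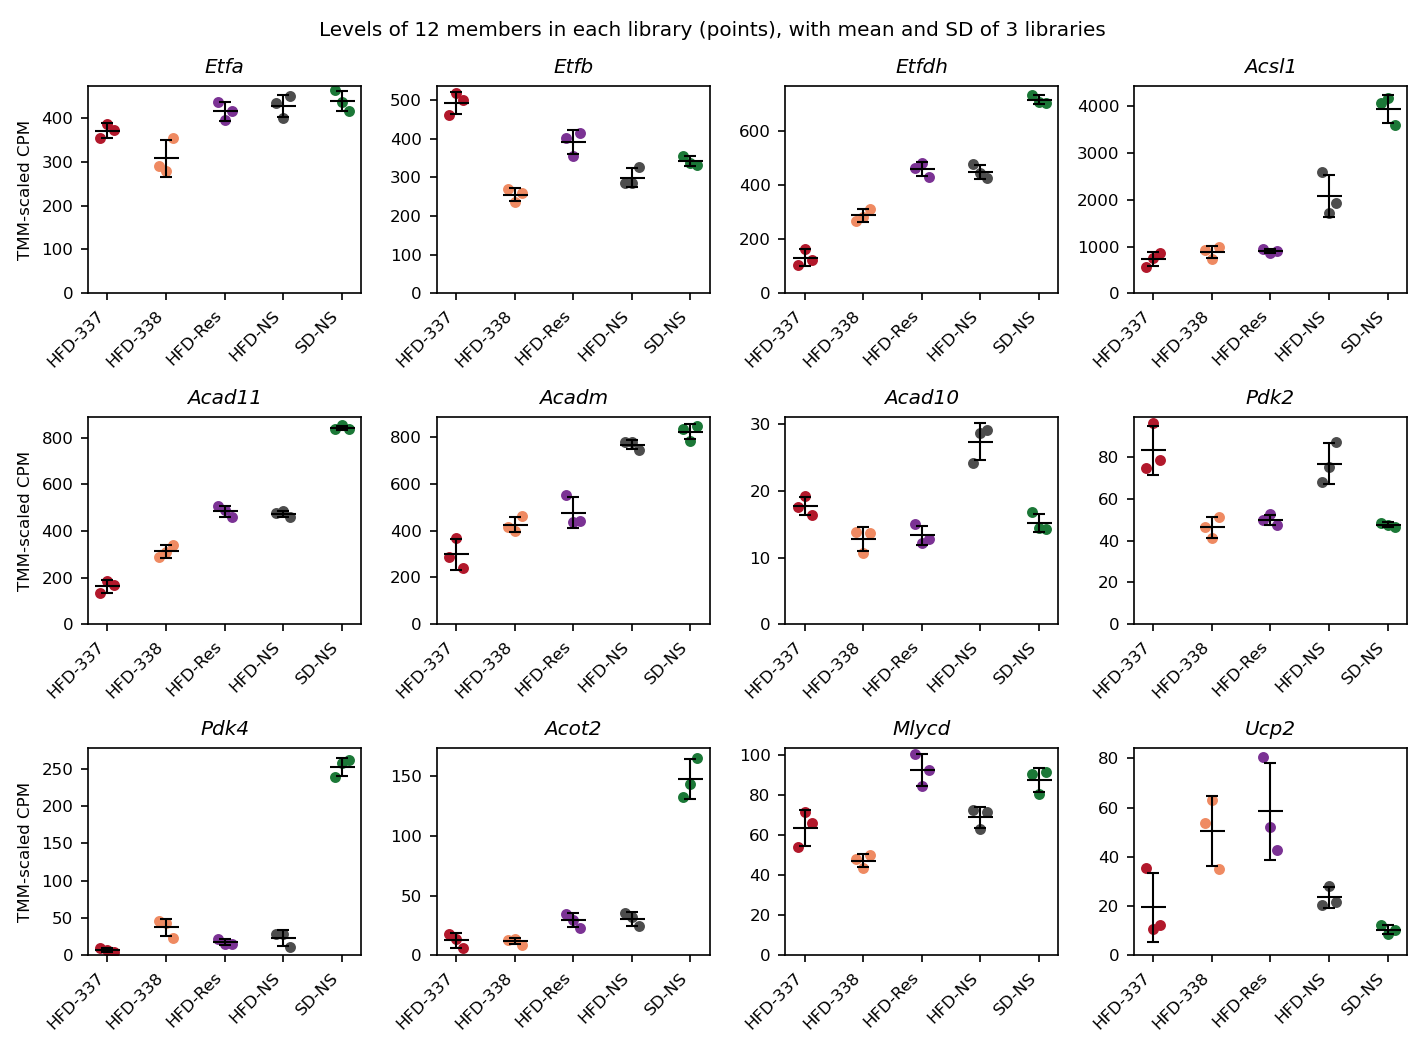
TMM-scaled CPM (linear axes from 0) of 12 members in each of the 15 libraries (points, coloured by group), with the mean and SD of the 3 libraries of each group. In the HFD-337 group Etfb is above and Etfdh below all other groups, and Pdk4 and Acot2 reach over 100 CPM only in SD-NS livers.

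Both ketone body genes among the members fell in HFD-338 livers, and Acat1 fell in HFD-337 livers as well. Acat1, the mitochondrial acetoacetyl-CoA thiolase, stood at 415, 497 and 399 CPM in HFD-337, 421, 410.4 and 462 in HFD-338 livers, 668, 591 and 589.9 in HFD-Res, 736, 651 and 686 in HFD-NS and 651, 640.2 and 592 in SD-NS livers. It fell in HFD-337 (-0.66 ± 0.10, adjusted p = 4.31e-05) and HFD-338 livers (-0.68 ± 0.10, adjusted p = 5.83e-05), both of which lay below the other 3 groups. Bdh1, which turns acetoacetate into 3-hydroxybutyrate, fell in HFD-338 livers (-0.34 ± 0.10, adjusted p = 0.00946; not called with TPM, adjusted p up to 0.2), was not called in HFD-337 livers (-0.01 ± 0.10, adjusted p = 0.918) and rose in HFD-NS against SD-NS livers (0.36 ± 0.10, adjusted p = 0.0106), a call lost without SD-NS replicate 6 or 7 (adjusted p up to 0.0544). Its exons share 7.05% of their bases with Gm15743.

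The remaining members control the pathway or release fatty acids from coenzyme A. Pdk4 and Pdk2 are kinases that switch off pyruvate dehydrogenase, and Pdk4 is a standard fasting and PPAR alpha gene. Pdk4 is shown by its promoter because it had the largest change between HFD-NS and SD-NS livers.
Pdk4 promoter, chr6:5496229-5496528, minus strand: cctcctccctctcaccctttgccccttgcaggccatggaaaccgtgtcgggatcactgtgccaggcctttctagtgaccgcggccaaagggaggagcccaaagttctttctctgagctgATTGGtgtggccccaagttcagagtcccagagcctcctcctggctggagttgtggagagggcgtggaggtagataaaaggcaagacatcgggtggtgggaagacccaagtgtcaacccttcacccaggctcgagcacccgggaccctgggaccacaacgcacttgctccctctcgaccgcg
This window holds 1 CCAAT box (ATTGG here, in capitals) and no GGGCGG. Pdk4 (chromosome 6, 5483351 to 5496278 on mm39) stood at 9.65, 7.03 and 3.86 CPM in HFD-337 livers, 45.3, 42.9 and 23.4 in HFD-338 livers, 21.8, 15.6 and 14.8 in HFD-Res livers, 29.1, 28.9 and 10.4 in HFD-NS livers and 239, 257 and 262 in SD-NS livers. SD-NS livers were far above all HFD groups, and the HFD-337 libraries were below all others. Pdk4 fell in HFD-NS against SD-NS livers (-3.48 ± 0.37, adjusted p = 7.34e-05) and again in HFD-337 against HFD-NS livers (-1.72 ± 0.45, adjusted p = 0.00910). In HFD-338 livers its mean was higher than in HFD-NS livers, without a call (0.72 ± 0.37, adjusted p = 0.155; limma-voom 0.0199), and its replicate 19 lay below 2 of the HFD-NS libraries. HFD-337 and HFD-338 livers differed (-2.43 ± 0.44, adjusted p = 7.02e-04).

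Pdk2 took another course. It stood at 74.4, 96.3 and 78.3 CPM in HFD-337 livers, 46.6, 41.1 and 51.3 in HFD-338 livers, 49.7, 52.4 and 47.4 in HFD-Res livers, 68.0, 75.0 and 87.3 in HFD-NS livers and 48.6, 47.6 and 46.4 in SD-NS livers. HFD-337 and HFD-NS livers were high and the other 3 groups low. Pdk2 rose in HFD-NS against SD-NS livers (0.69 ± 0.12, adjusted p = 2.44e-04), fell in HFD-338 (-0.73 ± 0.11, adjusted p = 6.96e-05) and HFD-Res livers (-0.63 ± 0.12, adjusted p = 8.97e-04), and was not called in HFD-337 livers (0.12 ± 0.11, adjusted p = 0.407). Per length, Pdk4 stood to Pdk2 as 0.0371 to 0.0977 in HFD-337, 0.344 to 0.788 in HFD-338, 0.225 to 0.332 in HFD-Res, 0.0901 to 0.322 in HFD-NS and 3.70 to 4.25 in SD-NS livers. The ratio was above 1 in the SD-NS libraries and below 1 in all others.

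Mlycd, which breaks down malonyl-CoA, stood at 54.0, 71.5 and 66.2 CPM in HFD-337 livers, 48.0, 43.8 and 50 in HFD-338 livers, 101, 84.6 and 92.4 in HFD-Res livers, 72.8, 63.1 and 71.5 in HFD-NS livers and 90.5, 80.7 and 91.7 in SD-NS livers. It was the member besides Etfb that rose in HFD-Res livers (0.42 ± 0.11, adjusted p = 0.0109), though not without HFD-Res replicate 29 or HFD-NS replicate 13 (adjusted p up to 0.0639), and it fell in HFD-338 livers (-0.55 ± 0.11, adjusted p = 5.63e-04). HFD-337 livers overlapped HFD-NS livers (-0.11 ± 0.11, adjusted p = 0.420), although with TPM Mlycd was called lower there (adjusted p = 0.0245). It also fell in HFD-NS against SD-NS livers (-0.34 ± 0.11, adjusted p = 0.0219), a call lost in 6 alternatives with adjusted p up to 0.101.

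Acot2, a mitochondrial acyl-CoA thioesterase, stood at 18.1, 13.3 and 5.89 CPM in HFD-337 livers, 12.9, 13.7 and 8.90 in HFD-338 livers, 34.9, 29.9 and 23.1 in HFD-Res livers, 35.0, 31.9 and 24.3 in HFD-NS livers and 133, 144 and 166 in SD-NS livers. SD-NS livers were high, HFD-Res and HFD-NS livers overlapped, and HFD-337 and HFD-338 livers lay below both. Acot2 fell in HFD-NS against SD-NS livers (-2.28 ± 0.26, adjusted p = 5.05e-05) and in HFD-337 (-1.28 ± 0.29, adjusted p = 0.00305) and HFD-338 against HFD-NS livers (-1.35 ± 0.28, adjusted p = 0.00246). Its value is given as uncertain, since Acot1 is a close paralogue and read sharing between them was not measured. Acot1 averaged 27.5 CPM in HFD-337 and 32.2 CPM in HFD-338 livers, against 81.3 CPM in HFD-NS livers. Acot13, another thioesterase, stood at 104, 94.3 and 84.8 CPM in HFD-337, 55.2, 47.3 and 63.5 in HFD-338 livers, 76.7, 68.3 and 75.8 in HFD-Res, 77.4, 66.6 and 73.1 in HFD-NS and 58.3, 52.7 and 58.5 in SD-NS livers. It was highest in HFD-337 livers (0.39 ± 0.11, adjusted p = 0.00621) and lower than HFD-NS in HFD-338 livers (-0.39 ± 0.11, adjusted p = 0.00840), but neither call held with TPM (adjusted p = 0.105 and 0.0993 with a pseudocount of 1), and the second was also lost without HFD-338 replicate 18 (adjusted p = 0.0651). The difference between HFD-337 and HFD-338 livers was called (0.77 ± 0.11, adjusted p = 9.78e-06). Acot13 also rose in HFD-NS against SD-NS livers (0.36 ± 0.11, adjusted p = 0.0207), a call lost without HFD-NS replicate 12, HFD-NS replicate 16 or SD-NS replicate 7 (adjusted p up to 0.0958).

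Ucp2 is a carrier of the inner membrane, known in normal rodent liver mainly from macrophages. It stood at 35.6, 10.6 and 12.2 CPM in HFD-337, 53.8, 63.0 and 35.1 in HFD-338 and 80.5, 52.0 and 42.9 in HFD-Res livers. Levels were 20.6, 28.2 and 21.7 CPM in HFD-NS and 12.3, 8.75 and 10.1 in SD-NS livers. HFD-338 and HFD-Res livers lay above HFD-NS livers without overlap, and HFD-NS livers above SD-NS livers. None of these differences was called (1.11 ± 0.40, adjusted p = 0.0514 in HFD-338, 1.31 ± 0.41, adjusted p = 0.0621 in HFD-Res, 1.15 ± 0.47, adjusted p = 0.0958 in HFD-NS against SD-NS livers), but DESeq2, limma-voom and the fit of the 2 groups called all 3. Replicate 23 of HFD-337 livers held the highest of the 3 values there, and without it Ucp2 was called lower in HFD-337 than in HFD-NS livers (adjusted p = 0.0223). Markers of macrophages (15 genes) summed to 175.5 to 353 CPM in HFD-337, 522.5 to 1178 in HFD-338, 306 to 399 in HFD-Res, 345 to 486 in HFD-NS and 196 to 348 in SD-NS livers, and their part in the level of Ucp2 was not tested.

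**Figure D4:**
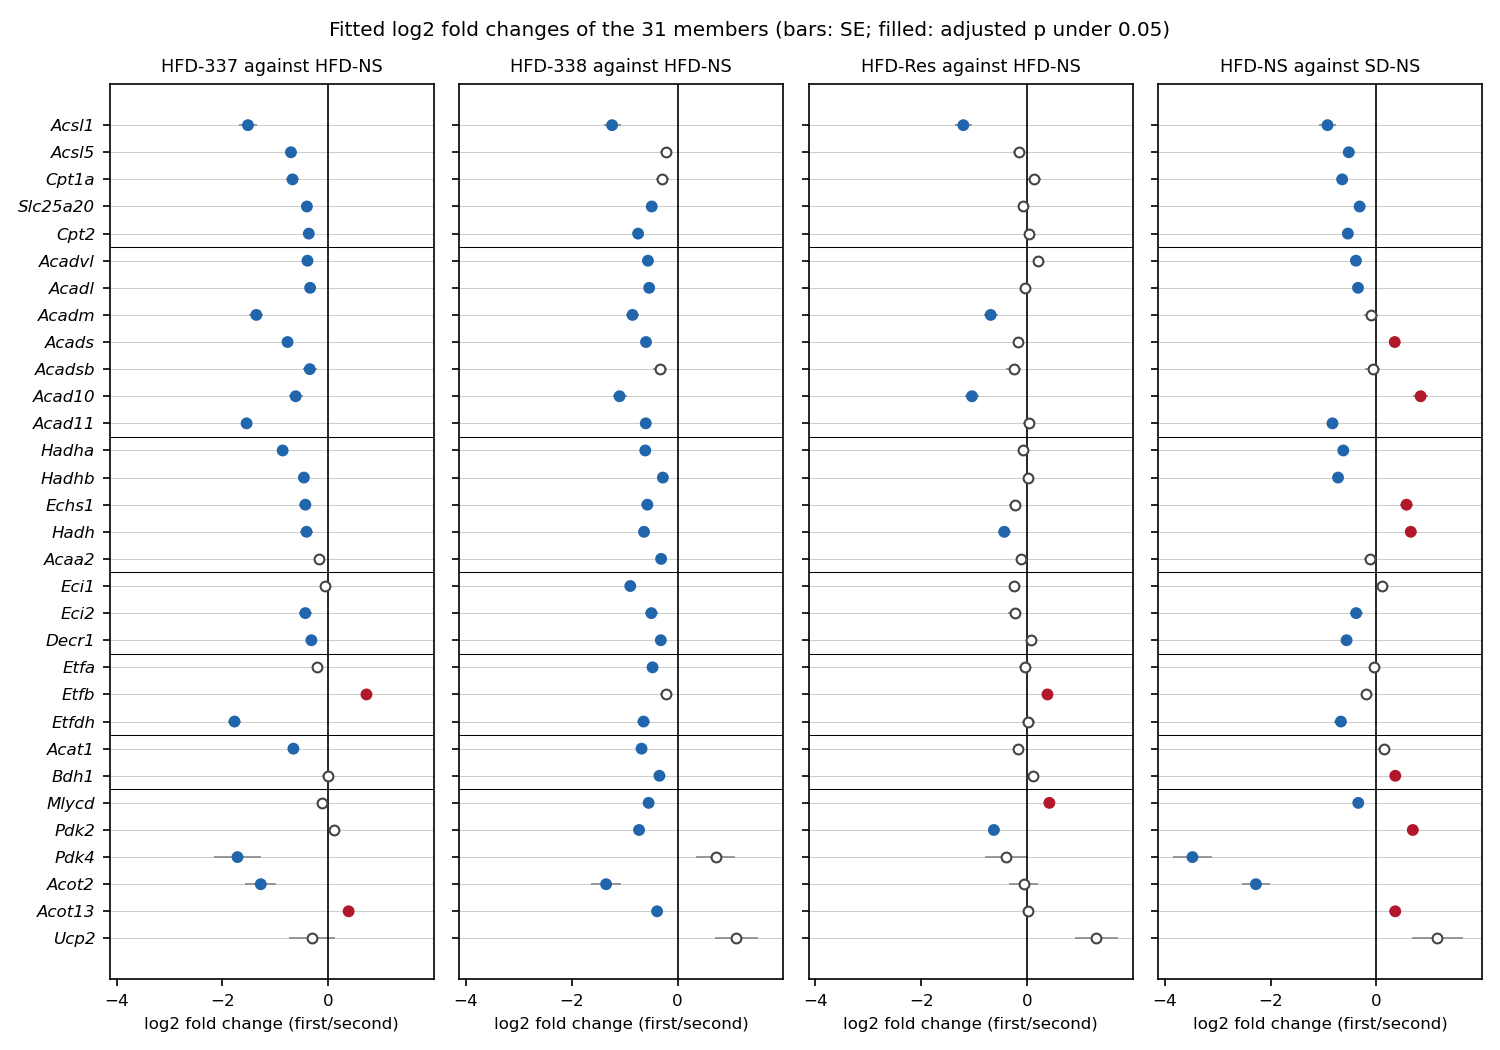
Fitted log2 fold change (x axis, first-named over second-named group) with its SE for the 31 members (y axis, in blocks by role) in 4 comparisons, with filled points at an adjusted p below 0.05. Etfb and Acot13 are the filled points right of 0 in HFD-337 against HFD-NS livers, no point is filled right of 0 for HFD-338 livers, and Pdk4 at -3.48 lies farthest left in HFD-NS against SD-NS livers.

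Between HFD-337 and HFD-338 livers 9 members were higher and 8 lower, 54.8% of the 31, where 58.4% of all genes tested were called, 28.8% higher and 29.6% lower. That share is no larger than the background. The median of 0.08 turned to -0.22 on TPM, where the median of all genes shifted by -0.23, and the split of members then became 4 higher and 14 lower. All genes then split into 2194 higher and 5314 lower (counts 3794 and 3907). Etfdh (-1.13), Pdk4 (-2.43), Etfb (0.95) and Pdk2 (0.85) were called with counts and with TPM. Against HFD-Res livers, HFD-337 livers had 18 members lower and 4 higher (47.6% of all genes called, 24.3% higher and 23.3% lower). The 4 higher were Acad10, Etfb, Pdk2 and Acot13, of which Acad10 (adjusted p up to 0.13) and Acot13 (up to 0.17) lost the call on TPM and, together, without HFD-Res replicate 30. On TPM the split was 2 higher and 23 lower, and of all genes 2440 higher and 3765 lower (counts 3205 and 3078).

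Each HFD group was also set against SD-NS livers. Against SD-NS livers, HFD-337 livers had 22 members lower and 4 higher (55.2% of all genes called, 27.1% lower and 28.1% higher), with a median log2 fold change of -0.69. HFD-338 livers had 24 lower and 1 higher (48.7% of all genes called, 25.7% lower and 23.0% higher), with a median of -0.81. HFD-Res livers had 15 lower and 4 higher (26.9% of all genes called, 15.4% lower and 11.5% higher), with a median of -0.32. On TPM all genes split into 4281 higher and 1565 lower in HFD-338 livers and 2066 higher and 1300 lower in HFD-Res livers. The members then split into 22 lower and 4 higher in HFD-337, 22 and 2 in HFD-338, and 14 and 6 in HFD-Res livers. Of the lower calls in HFD-338 livers, Acads was lost in 14 and Acadsb in 7 of 15 alternatives. In HFD-337 livers Etfa was lost in 8 and Acaa2 in 6 of 15. By counts, the 4 higher in HFD-Res livers were Echs1, Bdh1, Acot13 and Ucp2. Echs1 lost that call in 5 of 15 alternatives (adjusted p up to 0.14) and Acot13 in 3 (adjusted p up to 0.0728), both of them without HFD-Res replicate 29, HFD-Res replicate 34 or SD-NS replicate 7, which leaves 2. For Pdk4 the log2 fold change against SD-NS livers was -5.19 in HFD-337 livers, -2.76 in HFD-338 livers and -3.87 in HFD-Res livers.

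Genes around the pathway were read from lists set with the design. Of all genes tested, 22.8% were lower and 24.4% higher in HFD-337, 17.9% and 18.9% in HFD-338, and 6.74% and 6.22% in HFD-Res livers. In HFD-NS against SD-NS livers these shares were 16.1% and 12%. List counts are to be read beside them. Ppara, the receptor that drives many of the members, stood at 198, 195 and 151 CPM in HFD-337 livers, 217, 209 and 230.1 in HFD-338 livers, 371, 349 and 307 in HFD-Res livers, 348, 432 and 420.3 in HFD-NS livers and 525, 538 and 597 in SD-NS livers. It fell in HFD-337 (-1.14 ± 0.12, adjusted p = 4.72e-07) and HFD-338 livers (-0.87 ± 0.12, adjusted p = 1.72e-05), was not called in HFD-Res livers (-0.23 ± 0.12, adjusted p = 0.236) and fell in HFD-NS against SD-NS livers (-0.47 ± 0.12, adjusted p = 0.00570). Ppargc1a, a coactivator of mitochondrial genes, was called in none of these comparisons, with log2 fold changes of -0.28, 0.33, -0.57 and -0.24. Thrb, the receptor that resmetirom binds, was lower in HFD-338 livers (-0.63 ± 0.12, adjusted p = 4.36e-04) and not called in HFD-337 (-0.27) or HFD-Res livers (0.32). Of 25 PPAR alpha co-regulators tested, Ppara included, 12 were lower and 3 higher in HFD-337, 13 and 0 in HFD-338, 1 and 1 in HFD-Res livers, and 10 and 1 in HFD-NS against SD-NS livers. Esrra, an orphan receptor of mitochondrial genes, rose in HFD-337 livers (log2 fold change 1.39).

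Other PPAR alpha targets outside the mitochondrial pathway (29 tested) had 21 lower and 2 higher in HFD-337, 19 and 1 in HFD-338, 7 and 6 in HFD-Res livers, and 16 and 3 in HFD-NS against SD-NS livers. Peroxisomal fatty acid oxidation (21 tested) had 12 lower and 2 higher in HFD-337, 16 and 0 in HFD-338, 5 and 3 in HFD-Res livers, and 11 and 3 in HFD-NS against SD-NS livers. Ehhadh, a bifunctional enzyme of peroxisomes, fell in HFD-337 livers (-2.04) and rose in HFD-Res livers (0.57). Genes of carnitine and acyl-CoA supply (17 tested) had 9 lower and 2 higher in HFD-337, 11 and 1 in HFD-338 livers and 2 and 2 in HFD-Res livers, and 4 and 4 in HFD-NS against SD-NS livers. Crat, which trades acetyl groups between coenzyme A and carnitine, fell in HFD-337 (-1.27) and HFD-338 livers (-1.13) and in HFD-NS against SD-NS livers (-1.20).

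Malonyl-CoA and pyruvate control (19 tested) had 10 lower and 1 higher in HFD-337, 5 and 3 in HFD-338, 1 and 6 in HFD-Res livers, and 3 and 2 in HFD-NS against SD-NS livers. Acacb, the carboxylase that makes malonyl-CoA at mitochondria, averaged 8.61 CPM in HFD-338 livers (-2.13 ± 0.20, adjusted p = 1.23e-06) and 80.7 CPM in HFD-Res livers (1.10 ± 0.17, adjusted p = 3.70e-04), against 37.7 CPM in HFD-NS livers. Acaca, the cytosolic carboxylase, also rose in HFD-Res livers (1.20). The citric acid cycle (17 tested) had 9 lower and 1 higher in HFD-337, 11 and 1 in HFD-338, 2 and 4 in HFD-Res livers, and 6 and 4 in HFD-NS against SD-NS livers. Genes of mitochondrial content (27 tested) had 13 lower and 6 higher in HFD-337, 12 and 1 in HFD-338, 0 and 1 in HFD-Res livers, and 8 and 1 in HFD-NS against SD-NS livers. Their medians of -0.21 in HFD-337 and -0.25 in HFD-338 livers were smaller in size than those of the 31 members. Branched-chain and related enzymes (26 tested) had 12 lower and 5 higher in HFD-337, 16 and 1 in HFD-338 livers and 6 and 1 in HFD-Res livers, while HFD-NS livers had 15 higher and 2 lower than SD-NS livers.

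Fasting and feeding genes were read because feeding state moves the pathway. Over all genes tested, 47.2% were called in HFD-337 and 36.8% in HFD-338 livers, and fasting genes were called there at smaller shares. For HFD-Res livers the share of all genes was 13%, and for HFD-NS against SD-NS livers 28.1%. Of 17 genes known to rise in fasting, HFD-337 livers had 3 lower and 1 higher than HFD-NS livers. HFD-338 livers had 0 lower and 3 higher, and HFD-Res livers 2 and 2. HFD-NS livers had 10 lower and 0 higher than SD-NS livers. Few calls did not mean a small shift. The 17 genes had a median log2 fold change of -0.66 in HFD-337 livers, where that of the 31 members was -0.41. HFD-338 livers had a fasting-gene median of 0.04, and HFD-Res livers one of -0.12. The median for HFD-NS against SD-NS livers was -1.07. Igfbp1, a common marker of fasting, averaged 8.41 CPM in HFD-337 and 97.1 CPM in HFD-338, against 35.3 CPM in HFD-NS livers. That HFD-NS mean stood against 308 CPM in SD-NS livers. Of 15 genes known to rise after feeding, 3 were lower and 2 higher in HFD-337, 7 and 1 in HFD-338 livers and 1 and 7 in HFD-Res livers, and 3 and 7 in HFD-NS against SD-NS livers. Time of feeding and of collection is not given in the labels, and its part in the members' levels was not tested.

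Cell markers were counted in the same comparisons. Calls over all genes tested made up 47.2% in HFD-337, 36.8% in HFD-338, 13% in HFD-Res livers and 28.1% in HFD-NS against SD-NS livers. Both directions together, macrophage markers in HFD-337 and hepatocyte markers in HFD-338 livers were among those called at smaller shares. In both of these, every call was lower. Of 14 hepatocyte markers, 5 were lower and 4 higher in HFD-337, 4 and 0 in HFD-338, 5 and 2 in HFD-Res livers and 3 and 2 in HFD-NS against SD-NS livers, with medians of -0.03, -0.20, -0.38 and -0.15. Bile duct markers (12 genes, 10 tested) summed to 149.5 to 335 CPM in HFD-337, 739.6 to 899 in HFD-338, 137 to 157 in HFD-Res, 131 to 151 in HFD-NS and 104 to 124 in SD-NS livers, and all 10 rose in HFD-338 livers. Stellate cell markers (14 genes) summed to 172.5 to 360.3 CPM in HFD-337, 988 to 1719 in HFD-338, 473 to 552 in HFD-Res, 425 to 547 in HFD-NS and 375 to 430.3 in SD-NS livers. Macrophage markers were lower for 5 in HFD-337 livers, with a median log2 fold change of -1.02. In HFD-338 livers 7 were higher and 1 lower (median 0.80), and in HFD-Res livers 1 was lower. In HFD-NS against SD-NS livers 2 were higher and 1 lower. Stellate markers were lower for 6 in HFD-337 (median -0.90) and higher for 6 in HFD-338 livers (median 1.03). Of these, 3 were higher in HFD-NS than in SD-NS livers. Endothelial markers (15 genes) were lower for 14 in HFD-337 livers (median -1.72), and lower for 9 and higher for 1 in HFD-338 livers (median -0.73). In HFD-Res livers 1 was higher, and in HFD-NS against SD-NS livers 1 was higher and 1 lower. Of the 10 bile duct markers tested, 2 were higher and 1 lower in HFD-337, and 1 higher and 3 lower in HFD-Res livers. In HFD-NS against SD-NS livers 2 of them were higher. Lymphocyte markers (5 tested) were higher for 2 in HFD-338 livers, lower for 1 in HFD-Res and higher for 1 in HFD-NS against SD-NS livers. Red blood cell markers (5 tested) were lower for 1 in HFD-338 livers and 1 in HFD-Res livers. Adipocyte markers (8 genes) summed to 54.8 to 178.6 CPM in HFD-337, 327 to 346 in HFD-338, 38.2 to 42.6 in HFD-Res, 76.1 to 103 in HFD-NS and 29.9 to 36.3 in SD-NS livers. Of the 4 tested, 2 were lower and 1 higher in HFD-337 and in HFD-338 livers, 2 were lower in HFD-Res livers, and 3 were higher in HFD-NS against SD-NS livers. The 1 higher in HFD-338 livers was Lpl, a lipase of fat uptake, at a mean of 324 CPM against 38.4 CPM in HFD-NS livers. The part of these shifts in the members' levels was not tested.

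Calls in HFD-337 livers also followed gene length. Of tested genes spanning under 10 kb, 40.0% were higher and 9.90% lower than in HFD-NS livers, whereas of those spanning 100 kb or more 8.17% were higher and 42.6% lower. The members span 5.25 to 65.0 kb. Of 27 members between 10 and 100 kb, 19 fell and 2 rose, where 24.6% of all genes of that class fell and 20.6% rose, and of 4 shorter members 3 fell and none rose. In HFD-338 livers the class between 10 and 100 kb had 16.7% lower and 19.4% higher, with 22 of 27 members lower.

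Promoter windows of 300 bases (RefSeq, GRCm38.p6) were found for 27 of the 31 genes, 30 windows in all, and were searched on both strands. GGGCGG, the core of the Sp1 site, was in 18 windows (60%), against 35.7% of all 32851 windows. CCAAT was in 13 (43.3%), against 37.4%, and CACGTG, the E-box core, in 1 (Pdk2, 3.33%), against 7.15%. The nuclear receptor motif of AGGTCA repeated in the same direction after 1 base was in 0 windows, against 0.0396% of all, and with N at the fourth base of each repeat in 0, against 0.381%. TNAAGGTCA, the longer single site, was in 0, against 1.28%. These windows are short, and a missing match says only that the letters are not in them.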

How the data were processed

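Poly(A)-selected RNA from mouse liver was sequenced, per the labels' protocols. The deposited counts are whole exon reads per gene, counted without strand and for every gene a read overlaps, per the file headers. The genome build was mm39, with featureCounts 2.0.1, STAR 2.7.10b, Trim Galore 0.6.10 and Bowtie 1.3.1 listed without roles, per the submitters' processing notes. A second deposited table holds TPM: 12 columns equalled TPM recomputed from the counts within 0.001, and 3 value columns that could not be tied to one group were not used.

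Counts were fitted with edgeR 4.0.16 (robust quasi-likelihood, TMM) in R 4.3.3, all 15 libraries in 1 model of 5 groups, over the 13189 genes left by filterByExpr (minimum count 10), with Benjamini-Hochberg adjustment over all of them. The common biological coefficient of variation was 0.134. The fit was also run on simulated counts in which few genes changed, equally many in each direction. That run cannot speak to shifts as broad as those in these data. Alternatives were RLE size factors, no filter, DESeq2 1.42.0, limma 3.58.1 (voom), a fit of the 2 groups compared, TPM, and leaving out each library. TPM was tested with limma on log2(TPM + 1), also with 0.1, without TMM or other scaling between libraries. The pseudocount understates changes of low genes. The recomputed TPM was added after seeing the data. The members and gene lists were chosen with earlier results of these data known. Beyond the members, genes were named among the 3 largest called changes per list, direction and comparison with a mean of at least 1 CPM, or as regulators set with the design. Some genes next to the pathway are not reported here.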

Additional observations from a re-analysis of the deposited data

How the results depend on the processing

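Called totals, both directions together, moved by more than 1.5 times in 2 cases. In HFD-Res against HFD-NS livers 4 members were called without HFD-NS replicate 13 (range 4 to 7 over libraries left out), and 1134 genes in all without HFD-Res replicate 34 (range 1134 to 1467, against 1709 with all libraries); the cause was not tested. Leaving out 1 library gave 23 to 24 called members in HFD-337 and 21 to 27 in HFD-338 against HFD-NS livers, 18 to 22 in HFD-NS against SD-NS livers, 15 to 18 in HFD-337 against HFD-338 livers and 19 to 22 in HFD-337 against HFD-Res livers. Counts in 1 direction moved more: members higher fell to 4 of 7 in HFD-NS against SD-NS livers, to 2 of 4 in HFD-Res against SD-NS livers and to 2 of 4 in HFD-337 against HFD-Res livers. On TPM, genes lower numbered 1377 (counts 2357) in HFD-338 against HFD-NS livers, 1112 (2122) in HFD-NS, 1565 (3396) in HFD-338 and 1300 (2026) in HFD-Res against SD-NS livers, and genes higher 2194 (3794) in HFD-337 against HFD-338 livers. Against SD-NS livers the ranges of called members were 23 to 26 in HFD-337, 23 to 24 in HFD-338 and 17 to 19 in HFD-Res livers. On TPM the sign turned for Etfa, HFD-337 against HFD-338 (-0.002 with either pseudocount, against 0.27). It also turned for Acat1, HFD-337 against HFD-338 (-0.262 and -0.263 with pseudocounts 1 and 0.1, against 0.02). For Echs1, HFD-338 against SD-NS, it turned as well (0.241 and 0.242). The median of all genes shifted by -0.23 and 0.22 in those comparisons. TPM carried no TMM scaling, and the length of a gene is the same in every library. Apart from the pseudocount, the change of scale therefore moves all genes of a library by a common factor. Why that factor differed between groups was not tested. No paired analysis was possible because the groups share no replicate numbers. With 3 libraries a group, small fold changes can be missed, and the labels give no batch, feeding time or animal.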
